A study of Vitis vinifera with 12 samples.

Results

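CARPO, also called NAC60, is a NAC-family transcription factor of grapevine (Vitis vinifera). Its binding to leaf DNA was measured in libraries whose titles carry the number 1000 or 500, and all events of the 2 resulting lists were compared. The list labelled 1000 held 9170 binding events and the list labelled 500 held 14786, together 23956 of the 44889 events in the 7 lists of the series. The titles give the number without a unit, and what it stands for is not given in the sources used here.

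The assay was DNA affinity purification sequencing (DAP-seq). The factor, carrying a HALO tag, was translated without cells, in a lysate of rabbit reticulocytes, and fixed to a resin. It was then mixed with fragmented, protein-free genomic DNA, and the DNA that stayed bound was amplified and sequenced. The CARPO protein, the tag, the cultivar Syrah and the young leaf as DNA source were the same for both numbers. Leaves were pooled from fruiting cuttings. The list labelled 1000 came from 1 library. The list labelled 500 was called from 2 replicate libraries together, so the title number and the number of libraries changed at once and their effects cannot be told apart. The HALO-GST controls include a separate leaf library for each number, and which control each list was called against is not given. A difference in control thus cannot be told apart from these either. The HALO-GST control libraries were not analysed here. The binding is that of 1 factor alone on naked DNA, without chromatin or partner proteins.

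NAC proteins are plant transcription factors with a conserved DNA-binding domain at the N-terminal end and a variable regulatory C-terminal part. They bind DNA as dimers, most often at sites with the core CACG. Several members act in fruit ripening, among them the tomato factor NOR. A binding event here is a single base position with a deposited interval of 201 bp around it, and the genome build is not given in the sources used here, so positions are those of the deposited lists, counted from 1. The strength of an event is a value given by the authors, and here it only ranks events inside their own list. No event was assigned to a gene and no sequence was read.

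Most events of the list labelled 1000 were also in the list labelled 500, while the longer list labelled 500 held a further set of mostly weak events. Of the CARPO events labelled 1000, 6964 had an event labelled 500 within 100 bp, called a partner below (75.9%). Of the CARPO events labelled 500, 6934 had a partner labelled 1000 (46.9%, 95% exact Clopper-Pearson interval 46.1% to 47.7%). That left 2206 events without a partner at 1000 and 7852 at 500. The list labelled 1000 had 0.620 times as many events as the list labelled 500. There was 1 list per number and therefore no spread between replicates, so no difference between the lists carries a test. Intervals cover counting error only and assume that events are independent of each other. Read depth is not recorded in the lists and is unknown.

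Partners were nearly one to one. There were 6790 pairs in which each event was the nearest of the other. An event labelled 500 was the nearest one to more than 1 event labelled 1000 in 172 cases, and the reverse held for 136 events labelled 1000. The distance limit passed through a thin part of the distribution, with 516 events labelled 1000 whose nearest event labelled 500 lay over 50 and up to 100 bp away and 201 at over 100 and up to 150 bp. When both lists were reduced to their strongest 9170 events, the partner share was 64.8% for events labelled 1000 and 63.7% for events labelled 500, where equal lengths and nearly one-to-one partners make the 2 shares close by construction.

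Stronger classes of events had a partner more often in both lists, but at 500 the share was lower among the very strongest events. Each list was divided by event strength into 10 classes of equal size, class 1 being the strongest. In class 1 of the list labelled 1000, with strengths of 100 and above, 905 of 917 events had a partner (98.7%). In class 10, with strengths between 11 and 14.3, 343 of 917 did (37.4%). In class 1 of the list labelled 500, with strengths of 70 and above, 1363 of 1478 events had a partner (92.2%), and in class 10, 175 of 1479 did (11.8%). The share fell at each step from a stronger to a weaker class in both lists. The partner share at 500 crossed below 50% between class 4 (55.3%) and class 5 (42.9%), whereas at 1000 only class 10 lay below 50%. Within class 1 at 500 the share did not go on rising with strength. Of the strongest 50 events at 500, 39 had a partner (78.0%, 95% interval 64.0% to 88.5%), and 81 of the strongest 100 did. At 1000, 47 of the strongest 50 (94.0%, 83.5% to 98.7%), 95 of the strongest 100 and all of the strongest 10 had a partner. The lower shares at 1000 rest on few events. Of the strongest 1000 events, which at 1000 reach beyond class 1, 98.4% had a partner at 1000 and 91.2% at 500.

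**Figure D1:**
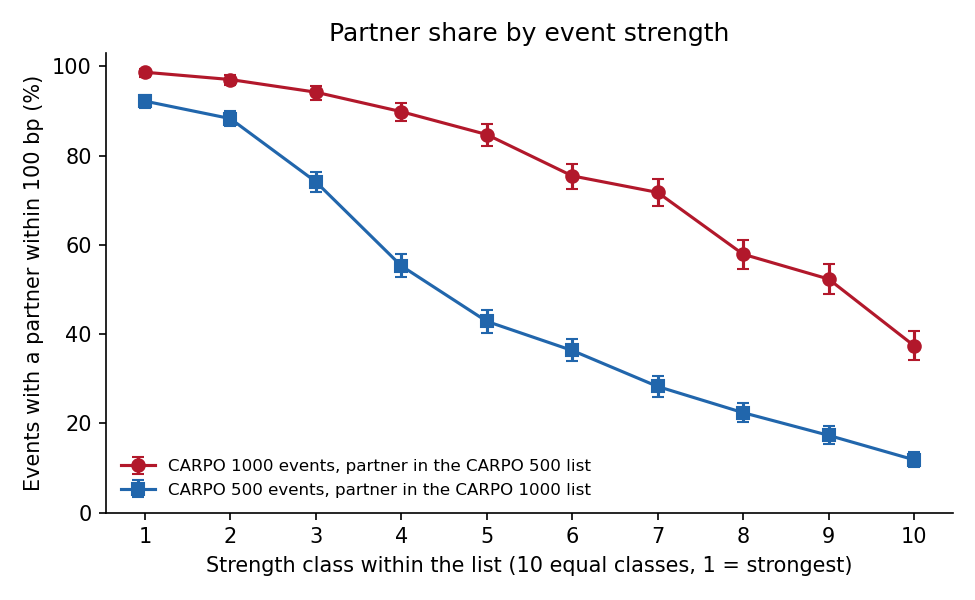
Share of events with a partner within 100 bp in the other CARPO leaf list (y axis, %) against the strength class within the event's own list (x axis, 10 classes, 1 = strongest). Points are the 1000 list (red circles) and the 500 list (blue squares), with exact 95% binomial intervals. Both lines fall throughout, from 98.7% to 37.4% at 1000 and from 92.2% to 11.8% at 500.

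Events without a partner lay close to the threshold of their list. Every listed event had a −log10 q-value of at least 2, as read from the deposited columns. The median −log10 q-value was 2.85 for events labelled 1000 without a partner and 5.63 for those with one. For events labelled 500 it was 3.09 without and 6.81 with a partner. Of the unpartnered events, 54.2% at 1000 and 45.3% at 500 had a −log10 q-value under 3. Highly significant events without a partner were few, since 60 unpartnered events labelled 1000 and 145 labelled 500 reached a −log10 q-value of 10. At that level 97.3% of the events labelled 1000 and 93.6% of those labelled 500 had a partner.

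Few unpartnered events were near misses. Of the 2206 at 1000, 264 (12.0%) had an event labelled 500 at over 100 and up to 200 bp, and 434 (19.7%) had one within 1000 bp. Of the 7852 at 500, 253 (3.22%) had an event labelled 1000 at over 100 and up to 200 bp, and 698 (8.89%) had one within 1000 bp. The median distance to the nearest event of the other list was 7821.5 bp for unpartnered events at 1000 and 14232 bp for those at 500.

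Several of the strongest sites were shared by both numbers. All of the 10 strongest events labelled 1000 had a partner, and 8 of the 10 strongest labelled 500 did. There were 6 pairs in which both events ranked among the 10 strongest of their lists, 53 with both among the strongest 100 and 610 with both among the strongest 1000. The top place was exchanged between 2 sites. The event on chromosome 11 at position 19741324 ranked 1 at 1000, with a strength of 13132, and its partner 1 bp away ranked 2 at 500, with a strength of 9519.4. The event on chromosome 9 at 20833335 ranked 2 at 1000, with a strength of 10332, and its partner at 20833339 ranked 1 at 500, with a strength of 11804.7. Strengths are not comparable between lists, and only the ranks are set side by side.

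The other pairs with the best mean rank lay on chr00, on chromosome 9 and on chromosome 5. The sequence chr00 is listed beside the 19 numbered chromosomes. On chr00, the events at 7155533 (1000) and 7155535 (500) ranked 4 in both lists. On chromosome 9, the event at 17381105 ranked 3 at 1000 and its partner at 17381111 ranked 6 at 500. On chromosome 5, the event at 11512462 ranked 9 at 1000 and its partner at 11512459 ranked 3 at 500. These 5 sites were also the 5 strongest of the CARPO list on berry DNA, with ranks of 2, 1, 4, 5 and 3 in the order given. All of them had an event in the list of NAC03, another grapevine NAC factor, with ranks of 3, 4, 5, 13 and 8.

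Of the 10 strongest events labelled 1000, 4 had a partner outside the 10 strongest at 500. The event of rank 5 at 1000, on chromosome 9 at 20833456, had rank 16 at 500. Rank 6, on chromosome 11 (8240310), had rank 11 at 500, and rank 7, on chromosome 9 (2611084), had rank 35. Rank 10, on chr00 (10871248), had rank 27. The event at 20833456 lies 121 bp from the second strongest event of its list. Among the 10 strongest events labelled 500, the event on chromosome 14 at 30192059 ranked 9, and its partner labelled 1000 at 30192064 ranked 17. No list of berry DNA, NAC33 or NAC03 had an event within 100 bp of that site. The event on chromosome 10 at 4605374 ranked 10 at 500, and its partner at 4605368 ranked 13 at 1000. The remaining pair with both ranks among the 10 strongest lay on chromosome 3, at 1949683 (1000) and 1949678 (500), and ranked 8 in both lists.

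Over the 6790 pairs, the rank of an event at 1000 and that of its partner at 500 were correlated (Spearman's rho 0.69, across events, which are not replicates). Of the 879 pairs whose event labelled 1000 was in class 1, 698 (79.4%) had a partner in class 1 at 500 and 820 (93.3%) one in classes 1 and 2. Within class 1 at 1000 the rank correlation was 0.61, and within class 10 it was 0.15 over 332 pairs. Strengths run from 100 to 13132 in class 1 and only from 11 to 14.3 in class 10. So narrow a range lowers a rank correlation by itself, and the 2 values cannot be compared. In 362 pairs the rank percentiles differed by over 50 points.

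**Figure D2:**
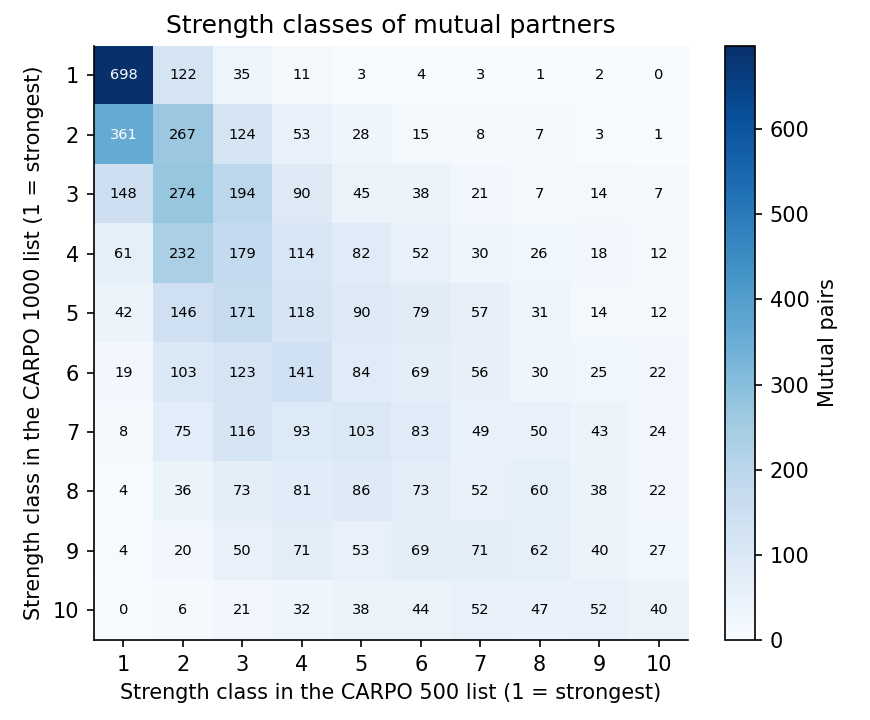
Number of mutual pairs (colour and printed number) by the strength class of the event in the CARPO 1000 list (y axis) and in the CARPO 500 list (x axis), 1 being the strongest. The largest cell, with 698 pairs, joins class 1 of both lists, and pairs of weak events spread over many cells.

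The pairs that differed most in rank percentile lay in the weakest classes of 1 list and among stronger events of the other, some of them in its class 1. On chromosome 4, the event at 18655295 ranked 1235 at 1000 with a strength of 79 and a −log10 q-value of 22.6, and its partner 2 bp away ranked 14541 at 500 with a strength of 15.6 and a −log10 q-value of 2.64. The other 4 pairs of this direction lay on chr00 and on chromosomes 15, 14 and 7, with ranks between 816 and 2111 at 1000 and between 12361 and 14612 at 500. In the opposite direction, the event on chromosome 10 at 10196467 ranked 9084 at 1000 with a strength of 11.4, and its partner at 10196492 ranked 2721 at 500 with a strength of 50. The other 4 pairs of this direction lay on chromosomes 10, 14, 14 and 17, with ranks between 7486 and 8268 at 1000 and between 837 and 2044 at 500. These pairs were chosen for their rank difference, which is therefore a description only.

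The 2 lists placed the same site at slightly different bases. The most frequent distance between mutual partners was 2 bp, in 3336 of 6790 pairs (49.1%). Only 54 pairs lay at the same base. The partner labelled 500 was on the lower side in 1721 of these pairs and on the higher side in 1615. The share at 2 bp was 51.2% among pairs whose event labelled 1000 was in class 1 and 53.9% among those in class 10, so it was about as high for weak pairs as for strong ones. Long distances were more frequent among weak pairs, with 22.0% at over 25 bp in class 10 and 8.53% in class 1. A small second accumulation, looked for after the values were seen, lay at 25 bp. There were 50 pairs at -25 bp, against 24 and 17 at the neighbouring distances of -26 and -24 bp, and 45 pairs at 25 bp, against 25 at 24 bp and 25 at 26 bp. Other distances stood out too, such as -37 bp with 25 pairs, against 9 at -38 bp and 4 at -36 bp. On the other side, 37 bp had 17 pairs, against 15 at 36 bp and 9 at 38 bp.

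**Figure D3:**
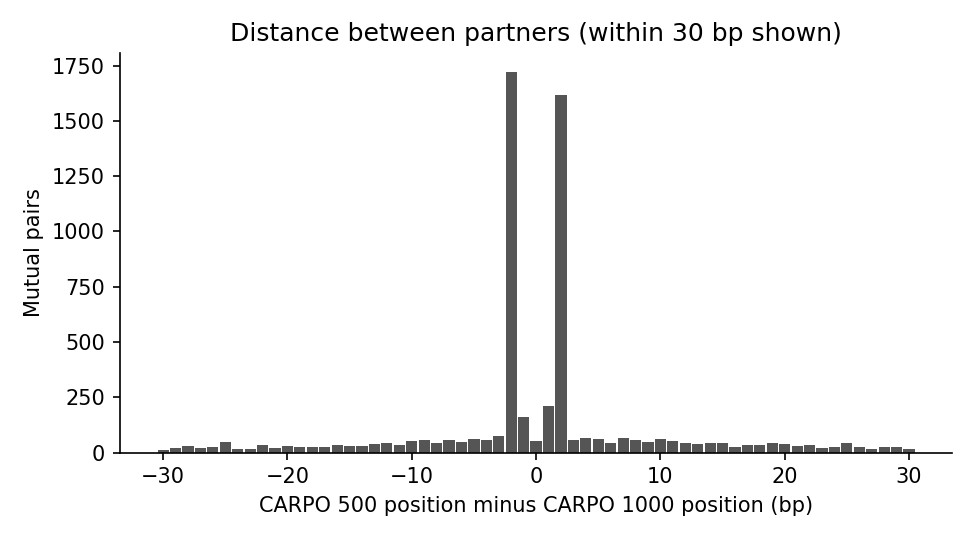
Number of mutual pairs (y axis) by the signed distance in bp, taken as the CARPO 500 position minus the CARPO 1000 position (x axis, distances up to 30 bp shown). Bars at -2 bp (1721 pairs) and 2 bp (1615 pairs) stand above all others, and 54 pairs lie at 0 bp.

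Where a pair lay 2 bp apart, events of further lists tended to fall on the base between them. Of the 3336 such pairs, 1497 (44.9%) had a CARPO berry event within 100 bp of the event labelled 1000, and in 965 of these (64.5%) the berry event lay exactly midway. A NAC03 event was found at 1384 of the pairs (41.5%), and it lay exactly midway in 1123 (81.1%). Among the 3454 pairs at other distances, 38.0% had a berry event and 23.8% a NAC03 event within 100 bp. The cause of these distances was not tested.

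Berry DNA gave a separate CARPO list of 3757 events, which the 2 leaf lists did not use. Of the events labelled 1000, 41.9% of those with a partner and 5.71% of those without one had a berry event within 100 bp, against 33.2% of all events of the list. Of the events labelled 500, the shares were 41.5% with a partner and 5.93% without, against 22.6% of all. The differences were 36.2 and 35.6 percentage points. Partnered events are stronger, and stronger events had berry partners more often, so events of the same strength class were compared too. In class 2 at 1000, 67.9% of partnered and 18.5% of the 27 unpartnered events had a berry event. In class 2 at 500 the shares were 56.1% and 28.9%. Seen from the berry list, 2784 of 3757 events (74.1%) had partners in both leaf lists and 391 (10.4%) in neither. Partners were in the list labelled 1000 alone for 122 (3.25%) and in the list labelled 500 alone for 460 (12.2%). The leaf list labelled 500 is also the longer one, so these 2 counts are not like for like.

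**Figure D4:**
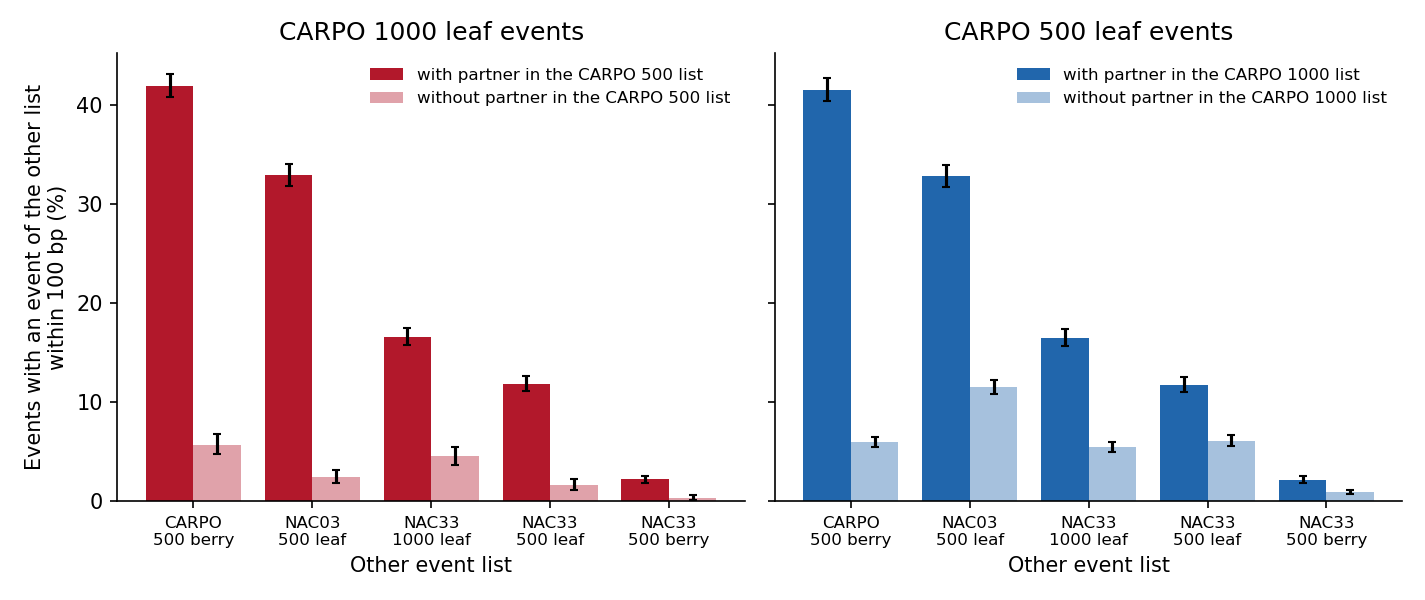
Share of CARPO leaf events (y axis, %) that have an event of another list (x axis) within 100 bp, for events labelled 1000 (left panel) and 500 (right panel), split into events with a partner in the other CARPO leaf list (dark bars) and without one (pale bars). Error bars are exact 95% binomial intervals. In the NAC03 list, 2.40% of unpartnered events at 1000 and 11.5% at 500 recurred.

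The unpartnered events of the 2 lists differed in how often the NAC03 list and the NAC33 leaf list labelled 500 held them. Their shares were closer in the CARPO berry list (5.71% at 1000 and 5.93% at 500) and in the NAC33 list labelled 1000. Strength was not matched between the 2 sets of unpartnered events. A NAC03 event, from leaf DNA labelled 500, lay within 100 bp of 2.40% of the unpartnered events at 1000 (95% interval 1.80% to 3.13%) and of 11.5% of those at 500 (10.8% to 12.3%). Over all events of the lists these shares were 25.6% at 1000 and 21.5% at 500. NAC33, a further grapevine NAC factor, has a leaf list for each number. Of the unpartnered CARPO events at 1000, 4.53% (3.70% to 5.49%) had an event in the NAC33 list labelled 1000 and 1.63% (1.15% to 2.25%) in the NAC33 list labelled 500. Of the unpartnered CARPO events at 500, 5.44% (4.95% to 5.96%) had an event in the NAC33 list labelled 1000 and 6.10% (5.58% to 6.65%) in that labelled 500. Over all events at 1000, 13.7% had an event in the NAC33 list labelled 1000 and 9.41% in that labelled 500, and over all events at 500 the shares were 10.6% and 8.74%.

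Counted by event, 77 unpartnered CARPO events at 1000 (3.49%) were in the NAC33 leaf list labelled 1000 and not in that labelled 500. The other way round it was 13 (0.589%). At 500 the corresponding counts were 192 (2.45%) and 244 (3.11%). Among all 5 other lists, 59 unpartnered events at 1000 (2.67%) were in the list labelled 1000 only. In lists labelled 500 only it was 153 (6.94%). For unpartnered events at 500 these counts were 126 (1.60%) and 1219 (15.5%). Of the 5 other lists, 4 are labelled 500, so the counts for the 2 labels are not like for like. The same patterns were not counted over all events of the CARPO lists, so these counts are a description only. Most unpartnered events were in no further list, 1953 of 2206 at 1000 (88.5%) and 6206 of 7852 at 500 (79.0%). Of the partnered events, 3008 in each list (43.2% at 1000 and 43.4% at 500) were in none. Partnered events are stronger, and strength was not matched between these sets. In the short NAC33 list on berry DNA, 0.317% of unpartnered events at 1000 and 0.891% of those at 500 recurred, against 1.74% of all events at 1000 and 1.49% at 500.

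The strongest events without a partner included sites that recurred in other lists. At 1000, the strongest lay on chromosome 2 at 11552451, with rank 16 and a strength of 1824. At 500, an unpartnered event lay 783 bp away at 11553234, with rank 23 and a strength of 2023.3. The NAC33 list labelled 1000 had an event at exactly 11552451, with rank 4. The CARPO berry list, at 11553236, and the NAC03 list, at 11553235, had events at the other place, with ranks of 21 and 20. At this locus the 2 lists labelled 1000 that had events thus held one place, and the 3 lists labelled 500 that had events held the other. Neither NAC33 list labelled 500 had an event within 1000 bp. This is a single locus, named for its strength, and the lists with events also differ in factor and DNA source.

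The second strongest unpartnered event at 1000 lay on chromosome 15 at 4089900, with rank 29 and a strength of 1050. The CARPO berry list had an event 4 bp away with rank 40 and NAC03 one 3 bp away with rank 45, while the nearest event labelled 500 on leaf DNA was 75382 bp away. On chromosome 7 at 23534515, an event of rank 87 had a NAC03 event 17 bp away with rank 39. The remaining 2, on chr00 at 7149105 (rank 33) and on chromosome 5 at 22404055 (rank 97), had no event of any other list within 1000 bp.

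At 500, the strongest unpartnered event lay on chromosome 13 at 12023114, with rank 5 and a strength of 5151.2. This place held the strongest event of all 3 NAC33 lists and the second strongest of NAC03. The CARPO berry list had no event within 100 bp of this place. A run of 3 events on chromosome 9, at 21158565, 21158735 and 21158833, ranked 17, 15 and 7, with strengths of 2418.8, 2484.6 and 4413.5. No other list had an event within 1000 bp of them, and the event at 21158833 lay 12871 bp from the nearest event labelled 1000.

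Strong events labelled 500 without a partner were frequent on chr00, a split that was examined after the values were seen. Of the 52 events of chr00 in class 1 at 1000, 51 had a partner (98.1%), as did 854 of the 865 on numbered chromosomes (98.7%). Of the 117 events of chr00 in class 1 at 500, 75 had a partner (64.1%, 95% interval 54.7% to 72.8%), while on the numbered chromosomes 1288 of 1361 did (94.6%, 93.3% to 95.8%). In the other 9 classes at 500 the shares were 40.0% on chr00 and 41.9% on the numbered chromosomes. The 42 unpartnered events of chr00 made up 36.5% of all unpartnered events in that class. Their strengths lay between 77.6 and 416.7, and 36 of them had another of the 42 within 50 kb. A NAC03 event was found within 100 bp of 25 of them (59.5%). The share was 52.2% for all 115 unpartnered class 1 events, which include the 42, and 21.5% for all events labelled 500. For the partnered events of the same class it was 74.0%. A CARPO berry event was found within 100 bp of 18 of the 42 (42.9%), beside 33.9%, 22.6% and 85.6% of those same sets. The NAC33 list labelled 1000 had an event within 100 bp of 4 (9.52%), beside 18.3%, 10.6% and 33.2%. For the NAC33 leaf list labelled 500 it was 6 (14.3%), beside 13.9%, 8.74% and 26.3%. For the NAC33 berry list it was 4 (9.52%), beside 11.3%, 1.49% and 6.02%.

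Among the numbered chromosomes, the ratio of event numbers at 1000 over 500 ranged from 0.565 on chromosome 4 to 0.663 on chromosome 10, and it was 0.640 on chr00. The share of events labelled 1000 with a partner lay between 68.9% (chromosome 16) and 81.5% (chromosome 17), and that of events labelled 500 between 41.7% (chromosome 4) and 50.6% (chromosome 10). Each of the 19 chromosomes thus had fewer events at 1000.

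Close neighbours within a list were more frequent at 1000. Of the 9150 gaps between neighbouring events at 1000, 238 were 100 bp or shorter (2.60%, 95% interval 2.28% to 2.95%), against 176 of 14766 at 500 (1.19%, 1.02% to 1.38%). At up to 1000 bp the shares were 9.40% and 9.16%. The smallest gap was 1 bp at 1000 and 18 bp at 500. Events with a neighbour within 100 bp in their own list had a partner in 459 of 475 cases at 1000 (96.6%) and in 309 of 351 cases at 500 (88.0%), against 75.9% and 46.9% over all events. A single event of the other list can be the partner of both neighbours, which raises these shares by construction. Neither strength nor list length was matched in the gap shares or in these partner shares.

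**Figure D5:**
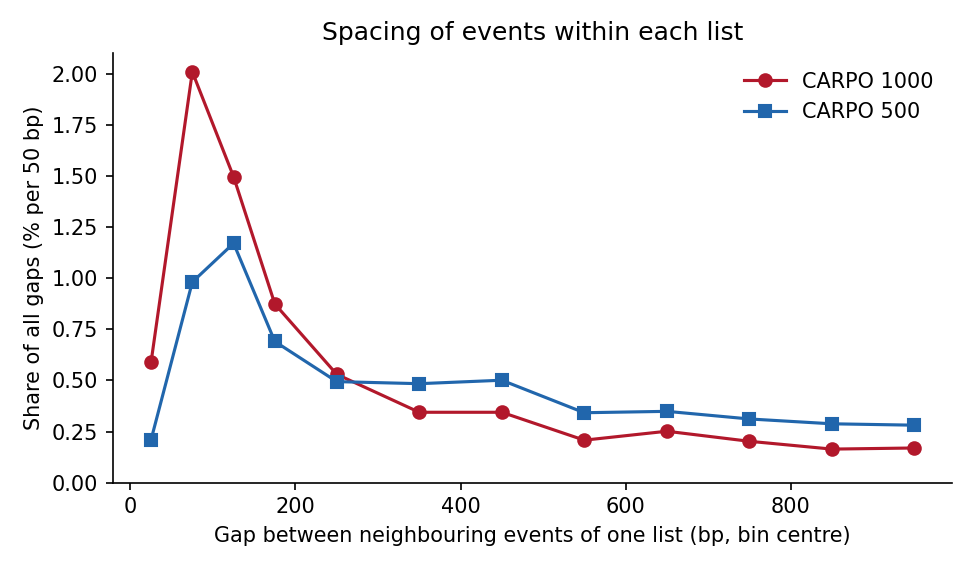
Share of all gaps between neighbouring events of one list, in % per 50 bp (y axis), by gap length in bp up to 1000 (x axis, bin centres), for the CARPO 1000 list (red circles) and the CARPO 500 list (blue squares). The 1000 list lies higher below 200 bp, with 2.01% of gaps over 50 and up to 100 bp against 0.982% at 500, and lower above 300 bp.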

How the data were processed

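DAP-seq events of CARPO on leaf DNA were compared between 1 list labelled 1000 and 1 list labelled 500. The list labelled 500 was called from 2 replicates together, per the labels. The submitters' processing notes name fastp 0.21.0 and Bowtie2 2.0. No source but the deposited lists' own names gives the caller, GEM. The genome build, the control and the filters are not given in the sources used here. The deposited lists have no header. Column 7 was read as event strength, a deposited score of the authors. Columns 8 and 9 were read from their values as −log10 of a p-value and of its adjusted value, capped at 999. The authors' intervals are 201 bp wide.

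Partners are events within 100 bp on the same sequence. Shares carry exact Clopper-Pearson 95% intervals. No test was run, because each number has 1 list. Calculations used Python 3.11.15, pandas 2.3.3 and SciPy 1.17.1, and the partner search was tested on simulated data. Named events are the 10 strongest of each list, the 5 strongest unpartnered ones, the 5 pairs with the best mean rank and the 5 with the largest rank difference in each direction. The members, lists and rules were chosen with earlier results of these data known. Alternatives were other partner distances, interval overlap, a stricter −log10 q-value, lists of equal length, numbered chromosomes only, neighbours merged within 500 bp and other rankings or pairings.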

Additional observations from a re-analysis of the deposited data

Results flagged for a closer look

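CARPO had fewer events at 1000 than at 500 on leaf DNA, whereas NAC33 had more. The ratio of event numbers, 1000 over 500, was 0.620 for CARPO (9170 and 14786 events) and 1.07 for NAC33 (6298 and 5870 events). With 1 list per condition, this difference was not tested. The lists labelled 500 came from 2 libraries and those labelled 1000 from 1 for both factors.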

How the results depend on the processing

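Of 70 recomputed values, 35 moved by no more than their counting error, by no more than 0.05 in rank correlation, or by no more than 1.5 times in event numbers. The other 35 moved further, and none changed sign. The ratio of event numbers lay between 0.611 and 0.664 and the rank correlation between 0.67 and 0.72. At partner distances of 25, 50 and 250 bp, by interval overlap, with a −log10 q threshold of 4, at equal list length and after merging within 500 bp, the partner share was 62.2%, 70.3%, 79.1%, 78.8%, 78.4%, 64.8% and 75.0% at 1000, and 38.5%, 43.4%, 48.8%, 48.6%, 51.5%, 63.7% and 45.8% at 500. Strength class 1 exceeded class 10 by 61.3 percentage points at 1000, and by 55.0 at 250 bp, 55.5 by interval overlap, 80.7 at equal length and 52.7 when ranked by p-value. At 500 the difference was 80.4 points, and 75.0 at 25 bp, 71.0 at the stricter q-value, 56.3 at equal length, 82.9 without chr00 and 83.5 when ranked by p-value. The excess of partnered over unpartnered events with a berry event was, at 25 bp, 50 bp, the stricter q-value and equal length, 30.6, 34.0, 23.0 and 43.2 points at 1000, and 31.3, 33.9, 21.8 and 33.9 points at 500. The share with an event of the NAC33 list labelled 1000, unpartnered minus partnered events at 1000, was -12.1 points, and -9.80, -10.2, -9.18 and -15.9 points under the same alternatives. Equal length meant the strongest 3757 events of each list for the berry values and the strongest 6298 for the NAC33 values. Wider distances and longer lists admit more partners by construction. The other moves have no tested cause. No paired analysis was possible because the replicates labelled 500 were called together and each number had 1 list, and no replicate could be left out in turn. Unknown read depth limits each comparison, since partners may lie below the threshold of a list.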

Other observations

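In windows of 1 Mb, the numbers of events at 1000 and at 500 were correlated (Spearman's rho 0.92 over 496 windows, a description across windows that share chromosomes and sequence). The fullest window at 1000 was chromosome 2 from 1000001 to 2000000, with 49 events at 1000 and 60 at 500. The fullest at 500 was chromosome 6 from 5000001 to 6000000, with 46 events at 1000 and 82 at 500. None of the 359 windows with at least 20 events labelled 500 had more events at 1000 than at 500. These windows were chosen by their events labelled 500, and the median window held 16 events at 1000 and 26 at 500. The selection and the list lengths thus largely set this outcome in advance.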
